A study of Mus musculus with 32 samples.

Results

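Carbonic anhydrases interconvert carbon dioxide and water with bicarbonate and a proton. In the active members a zinc ion held by histidine side chains carries out the reaction. In muscle they are known for moving carbon dioxide out of working fibres and for buffering the protons that leave the fibre with lactate. The 5 genes described here are *Car2*, *Car3*, *Car4*, *Car8* and *Car14*, out of 16 mouse carbonic anhydrase genes examined and 54838 genes in the table of counts. They were found by symbol, and they had been selected on earlier results from these same libraries. Their differences between genotypes and between ages are therefore described with no *P*-value of their own. Calls among the 5 are only counted, beside the share of all genes called, and support nothing. All 5 passed the filter on low counts at every age.

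The libraries came from poly(A) RNA of skeletal muscle of mice on the C57BL6/J background. Wild-type (WT) mice were compared with mice carrying a knockout of *Mtm1* (KO), the X-linked gene of the lipid phosphatase myotubularin and a model of X-linked myotubular myopathy. There were n=4 libraries per genotype at postnatal day 1 (P1), P14, P21 and P35, 32 in all. The labels give the tissue only as skeletal muscle, and the study's text names the tibialis anterior (TA). The line began in the 129S2PAS background and was later moved onto C57BL6J, and KO and WT mice were housed together. Levels are given in CPM, counts per 1e+06 counts of a library, with library sizes scaled by edgeR's TMM factors. Fold changes are on the log2 scale with the standard error (SE) of the edgeR fit, n=4 per group.

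Library totals were 49321035 to 85631408 counts. Counts ranged from 131 to 2141 per library for *Car2*, 175 to 997 for *Car4*, 191 to 651 for *Car8*, 547 to 3231 for *Car14* and 9918 to 174855 for *Car3*, so none of the 5 was near the limit of detection. *Mtm1* itself was lower in KO than in WT by -0.98 on the log2 scale at P1 and by -2.34 to -2.71 at the later ages, and KO libraries kept 2.32 to 4.51 CPM of the transcript. Markers of fast fibres were abundant in every library from P14 on, at 43175 to 116390 CPM summed over 6 genes. At P1 they summed to 3788 to 7379 CPM, and keratinocyte markers summed to 1731 to 6433 CPM against at most 6.28 CPM at later ages. Fast fibre markers were thus lower at P1 and keratinocyte markers higher than at any later age. At P14 the replicate 4 libraries of both genotypes stood apart in several genes, *Car4* among them. Some of the values that rest on them are given with and without them.

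*Car3* and *Car2* are neighbours on chromosome 3. *Car3* lies on the plus strand at chr3:14863512-14872523 of GRCm38, and *Car2* starts 13749 bases beyond its end, at chr3:14886273-14900770 on the same strand. *Car14* is further along that chromosome on the minus strand (chr3:95897768-95904691), *Car4* is at chr11:84957786-84966044 on the plus strand and *Car8* at chr4:8143362-8239041 on the minus strand. The windows below show the zinc site that the active enzymes share. They come from the GENCODE M21 transcripts, read 5′ to 3′, and hold the codons aligned to codons 94 and 96 of *Car2*, 2 of the 3 that encode its zinc-binding histidines. Those codons are in capitals, with 12 bases on each side.
Car2: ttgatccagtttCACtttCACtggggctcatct
Car3: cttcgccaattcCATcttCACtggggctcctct
Car4: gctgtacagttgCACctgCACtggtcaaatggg
Car14: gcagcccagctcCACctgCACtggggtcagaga
Both capital triplets are histidine codons in *Car2*, *Car3*, *Car4* and *Car14*.

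The windows around the third zinc position, codon 119 of *Car2*, had a histidine codon in these genes as well, as in these lines for the most alike pair.
Car2: gctgcagagcttCACttggttcactgg
Car3: gctgctgagcttCACctggttcactgg
Over aligned codons, the meaning was the same as in *Car2* for 56.9% in *Car3*, 43.3% in *Car8*, 37.2% in *Car14* and 33.3% in *Car4*. *Car2* and *Car3* both had 260 codons, *Car8* had 291, *Car4* had 305 and *Car14* had 337. *Car2* and *Car3* encode cytosolic enzymes, the first fast and the second slow. *Car4* encodes an enzyme anchored at the outer cell surface and *Car14* one that spans the membrane with its active domain outside, while the product of *Car8* has no carbonic anhydrase activity and binds the IP3 receptor.

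Compared per kilobase of exon, *Car3* was by far the most abundant carbonic anhydrase transcript in every library. It made up 65.7% to 96.9% of the summed CPM per kb of the 16 genes. In WT at P35 the level was 493 ± 283 CPM per kb (SD, n=4) for *Car3*, 20.6 ± 3.20 for *Car14*, 6.25 ± 3.51 for *Car4*, 3.89 ± 0.985 for *Car2* and 3.32 ± 0.530 for *Car8*. *Car3* and *Car14* each stood clear of the next gene, and the ranges of *Car4* and *Car2*, and of *Car2* and *Car8*, overlapped. In KO at P35 the order differed at the bottom, with *Car8* at 1.76 ± 0.270 and *Car2* at 1.23 ± 0.281 CPM per kb, whose ranges also overlapped. At P1 the order in both genotypes was *Car3*, *Car2*, *Car14*, *Car4* and *Car8*, and there *Car2* and *Car14* overlapped in both and *Car4* and *Car8* overlapped in KO.

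**Figure D1:**
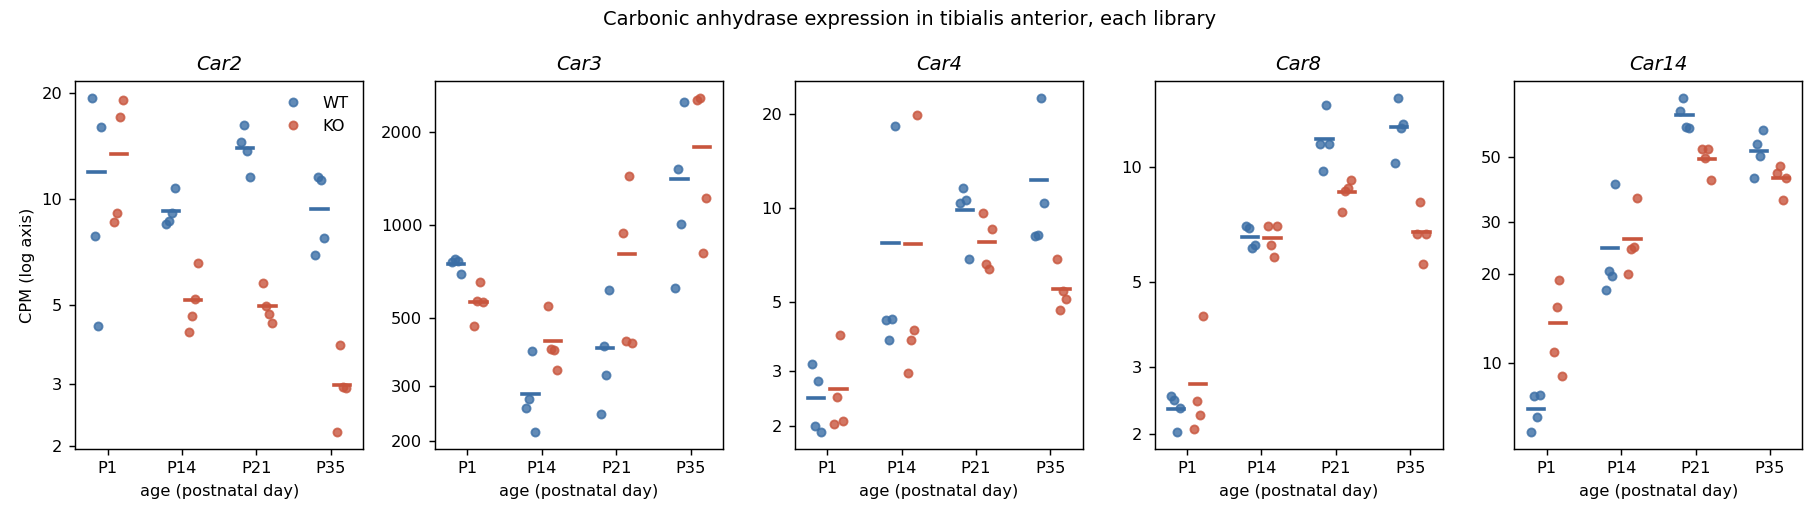
Level of each gene in CPM on a log axis, by age in postnatal days. Each point is 1 library, blue for WT and red for KO, and the bars are means of n=4. *Car2* separates by genotype from P14 on, *Car8* from P21 on, and single high *Car4* libraries at 18.2 and 19.8 CPM stand out at P14.

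*Car2*, the fast cytosolic enzyme, was lower in KO muscle at every age after P1. At P1 its level varied widely within both genotypes, with 19.4, 7.86, 4.37 and 16.1 CPM in WT, against 8.60, 9.15, 17.1 and 19.1 CPM in KO. By P14 the groups no longer overlapped, at 8.51, 8.70, 9.14 and 10.7 CPM in WT, against 4.21, 4.68, 5.22 and 6.58 CPM in KO. The log2 fold change was 0.19 (SE 0.455) at P1 and -0.85 (SE 0.144) at P14.

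The gap in *Car2* was wider at P21, where WT libraries held 14.5, 16.2, 13.7 and 11.6 CPM and KO libraries 5.78, 4.99, 4.74 and 4.45 CPM. At P35 WT libraries held 6.96, 11.5, 11.4 and 7.77 CPM, against 2.19, 3.85, 2.94 and 2.92 CPM in KO. Every WT library was above every KO library at both ages. The log2 fold change was -1.48 (SE 0.121) at P21 and -1.63 (SE 0.219) at P35, so that KO muscle held 0.359 and 0.322 of the WT level. Leaving out any single library kept it between -1.56 and -1.40 at P21 and between -1.79 and -1.52 at P35. Scaled by library totals it was smaller in size, at -1.29 at P21 and -1.23 at P35.

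Within WT, *Car2* was higher at P21 than at P14 by 0.58 (SE 0.119) and lower at P35 than at P21 by -0.59 (SE 0.180). Within KO, it was lower at P14 than at P1 by -1.41 (SE 0.277), differed by -0.07 (SE 0.149) from P14 to P21 and by -0.73 (SE 0.175) from P21 to P35. The mean in KO was thus 13.5 ± 5.39, 5.17 ± 1.03, 4.99 ± 0.571 and 2.97 ± 0.681 CPM at the successive ages (SD, n=4). The KO effect at P21 minus that at P14 was -0.64 (SE 0.435) in the fit of all 32 libraries, which includes the wide spread at P1, and -0.65 (SE 0.193) in a fit of only the libraries of those 2 ages. At P35 minus that at P21 it was -0.17 (SE 0.439) and -0.15 (SE 0.259).

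*Car2* is also a major protein of red blood cells. The 7 erythroid markers, globins among them, summed to 3179 to 4358 CPM in WT, against 1627 to 3284 CPM in KO at P21, well above 444 to 759 and 335 to 534 CPM at P14. At P35 they were back at 190 to 584 CPM in WT, against 222 to 433 CPM in KO. With edgeR, none of the erythroid markers tested was called between genotypes at any age, with 5 of the 7 tested at P35. The share of all genes called was 0.0442%, 0.0318%, 4.67% and 16% at the 4 ages. DESeq2 called the anion exchanger gene *Slc4a1*, 1 of the 7, at P21. The median log2 fold change of the markers tested was -0.45, -0.33, -0.57 and -0.56 at P1, P14, P21 and P35. In WT, *Car2* was also highest at P21 among these ages, at 9.27 ± 1.01, 14.0 ± 1.92 and 9.41 ± 2.39 CPM at P14, P21 and P35 (SD, n=4). In KO, *Car2* was 5.17, 4.99 and 2.97 CPM. At P14, P21 and P35 the marker sums of the genotypes overlapped and *Car2* did not. The part of blood in the *Car2* levels was not tested. In bulk muscle, fewer cells of a type and less RNA per cell cannot be told apart.

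*Car3*, which encodes the slow cytosolic enzyme known for its abundance in slow fibres and in fat, varied more between mice of a group than the others at P21 and P35. In WT it was 760, 777, 762 and 694 CPM at P1 and 256, 272, 392 and 213 CPM at P14. In KO it was 472, 567, 655 and 565 CPM at P1 and 547, 397, 394 and 340 CPM at P14. KO libraries were below all WT libraries at P1, by -0.39 (SE 0.110), and were mostly above them at P14, by 0.57 (SE 0.204), where the groups overlapped. Within same-numbered P14 libraries KO was above WT in all 4 pairs, at 394.4 against 391.6 CPM in the closest, and with these pairs in the fit the log2 fold change was 0.58 and not called.

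At P21 *Car3* stood at 244, 406, 326 and 617 CPM in WT, against at 941, 421, 1436 and 414 CPM in KO. At P35 it stood at 624, 1519, 1010 and 2498 CPM in WT, against at 2529, 2579, 810 and 1225 CPM in KO. The spread between mice of 1 group covered the difference between genotypes at both ages, with a log2 fold change of 1.02 (SE 0.425) at P21 and 0.37 (SE 0.466) at P35. Without each library in turn, the value at P21 lay between 0.57 and 1.31. In WT, *Car3* fell from P1 to P14 by 1.41 on the log2 scale (SE 0.167), and it was higher at P35 than at P21 by 1.81 (SE 0.424) with no overlap. Summed adipocyte markers in WT were 71.8 to 262 CPM at P1 and at most 23.5 CPM at P14. Their part in the fall of *Car3* was not tested.

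Markers of the cells that are rich in *Car3* moved between genotypes at P35. The 6 slow fibre markers summed to 36.2 to 171 CPM in WT, against 768 to 1831 CPM in KO. Of the 6, 5 were called higher, beside 16% of all genes. The 6 adipocyte markers summed to 5.49 to 26.8 CPM in WT, against 43.1 to 177 CPM in KO, and again 5 of 6 were called higher. Satellite cell markers went the other way at P35, with 2 of 4 called lower, 0 higher and a median log2 fold change of -1.09. *Car3* overlapped between genotypes at that age. Across all 32 libraries, deviations of *Car3* from its group mean went with those of summed satellite cell markers (Pearson's r = 0.72), fibroblast markers (r = 0.55), osteoclast and cartilage markers (r = 0.47), slow fibre markers (r = 0.47) and adipocyte markers (r = 0.40), and ran against neuromuscular junction markers (r = -0.62). These correlations are descriptions, over libraries that share scaling and depth. Their part in the *Car3* levels was not tested.

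*Car4*, the surface-anchored enzyme known from capillary endothelium and muscle membranes, was low at birth and higher later. At P1 its libraries held 3.15, 2.003, 2.78 and 1.91 CPM in WT, against 2.03, 2.47, 3.91 and 2.08 CPM in KO. At P14, 3 libraries of each genotype held 3.77 to 4.41 CPM (WT) and 2.95 to 4.07 CPM (KO), while replicate 4 held 18.2 CPM in WT, against 19.8 CPM in KO. The log2 fold change between genotypes at P14 was -0.02 (SE 0.741). It lay at 0.85 without the WT replicate 4, at -1.10 without the KO replicate 4 and at -0.23 without both. With same-numbered libraries paired in the fit it was -0.12 and not called.

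At P21 *Car4* was 10.3, 11.5, 10.6 and 6.87 CPM in WT, against 9.58, 6.62, 6.38 and 8.56 CPM in KO, and the groups overlapped. At P35 it was 8.10, 8.19, 22.5 and 10.3 CPM in WT, against 6.83, 4.69, 5.39 and 5.10 CPM in KO. No KO library reached a WT library at P35, and 1 WT library stood far above the other WT libraries. The log2 fold change was -0.33 (SE 0.180) at P21 and -1.13 (SE 0.320) at P35, where it was not called with edgeR and was called with DESeq2. The smallest size it took at P35 when single libraries were left out was -0.67, against -1.29 at the largest.

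The 6 capillary endothelium markers summed to 386 to 655 CPM in WT, against 316 to 397 CPM in KO at P35, and the sums overlapped. Of the 6, 3 were called lower, beside 16% of all genes. *Rgcc*, 1 of the 6, was not lower, at 23.3 to 37.0 CPM in WT, against 24.1 to 53.6 CPM in KO. At P21, with sums of 580 to 860 and 455 to 553 CPM, none of the 6 was called, beside 4.67% of all genes. Their part in the *Car4* difference was not tested.

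*Car14*, the membrane-spanning enzyme, was second among the 5 in mean CPM per kb from P14 on. At P1 its libraries held 5.83, 7.73, 6.53 and 7.80 CPM in WT, against 10.9, 15.5, 19.2 and 8.99 CPM in KO. At P14 they held 17.6, 20.6, 19.8 and 40.5 CPM in WT, against 20.1, 24.3, 24.8 and 36.4 CPM in KO. KO libraries were thus all above WT at P1, by 0.98 (SE 0.222), while the groups overlapped at P14, where the difference was 0.10 (SE 0.283). With same-numbered P14 libraries paired in the fit the difference was 0.14 and not called. Without both P14 replicate 4 libraries it was 0.25. The KO value at P1 was not called with edgeR and was called with DESeq2.

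At P21 the direction was the opposite, with 71.7, 79.4, 63.1 and 62.7 CPM in WT, against 53.1, 49.5, 53.2 and 41.6 CPM in KO, and no overlap. At P35 *Car14* held 42.4, 55.1, 50.4 and 61.8 CPM in WT, against 44.3, 46.7, 35.8 and 42.4 CPM in KO. The log2 fold change was -0.48 (SE 0.101) at P21, under the size needed for a call. At P35 it was -0.29 (SE 0.123) and turned to 0.12 when libraries were scaled by their totals. In WT, *Car14* rose by 1.81 (SE 0.256) from P1 to P14 and by 1.48 (SE 0.249) from P14 to P21. In KO the same steps were 0.92 (SE 0.251) and 0.89 (SE 0.166). All of these steps include the high P14 replicate 4 libraries.

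*Car14* shares its 3′ end with that of *Aph1a* on the opposite strand, and the use of read strand in counting is not given in the sources used here. *Aph1a* itself differed between genotypes by 0.01, 0.09, 0.01 and 0.01 at the 4 ages.

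*Car8*, which encodes the inactive IP3 receptor-binding member, was low at birth and showed no gap between genotypes up to P14. At P1 it was 2.51, 2.45, 2.02 and 2.34 CPM in WT, against 2.07, 2.45, 2.24 and 4.08 CPM in KO. At P14 it was 7.01, 6.92, 6.15 and 6.27 CPM in WT, against 7.01, 6.24, 5.82 and 7.04 CPM in KO. Genotypes overlapped at both ages, with log2 fold changes of 0.23 (SE 0.216) and -0.02 (SE 0.095). With same-numbered P14 libraries paired in the fit the P14 value was -0.02 as well.

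From P21 the genotypes parted, with *Car8* at 11.5, 9.79, 14.6 and 11.5 CPM in WT against 7.63, 8.68, 8.84 and 9.27 CPM in KO. At P35 WT held 10.2, 15.2, 12.7 and 13.0 CPM and KO held 6.68, 8.13, 5.59 and 6.70 CPM. No KO library reached the lowest WT library at either age. The log2 fold change was -0.45 (SE 0.130) at P21 and -0.89 (SE 0.147) at P35. Scaled by library totals it was -0.49 at P35 and the call was lost. In WT, *Car8* rose by 1.49 (SE 0.104) from P1 to P14 and by 0.84 (SE 0.126) from P14 to P21, and then differed by 0.09 (SE 0.150). In KO it rose by 1.24 (SE 0.215) from P1 to P14, and the later steps were 0.38 (SE 0.103) and -0.33 (SE 0.126). A processed pseudogene, Gm11799, lies inside *Car8* on the same strand, so reads could be split between them.

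**Figure D2:**
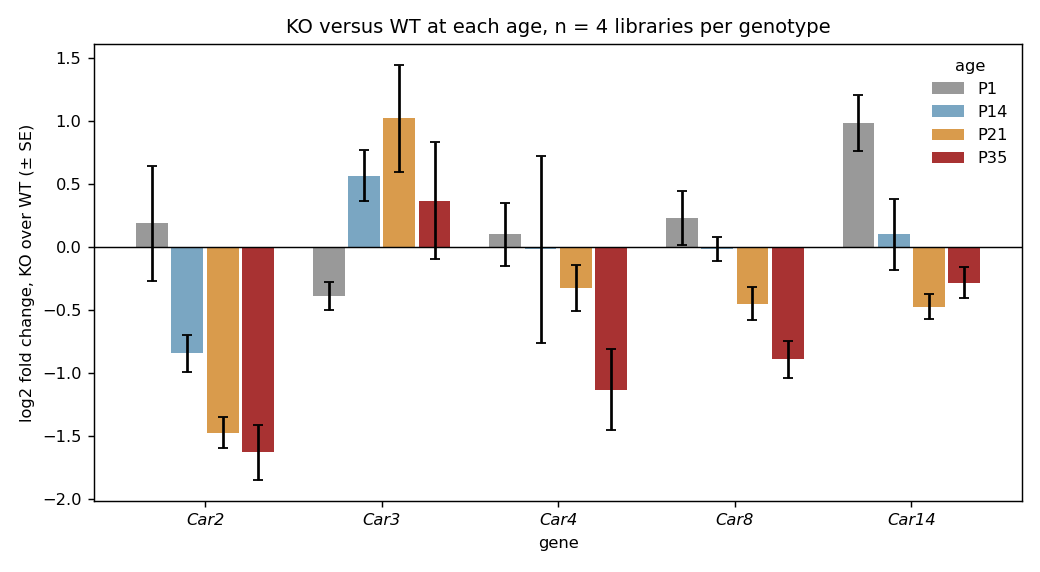
Log2 fold change of KO over WT for each gene at P1, P14, P21 and P35. Bars are estimates from n=4 libraries per genotype and lines are ± 1 SE. *Car2* runs from 0.19 at P1 to -1.63 at P35, *Car8* reaches -0.89 and *Car3* is above 0 after P1 with wide errors.

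A gene was called when its adjusted *P*-value was under 0.01 and its fold change over 1.5 in either direction. At P1, 0 of the 5 genes were called in KO against WT, beside 0.0442% of all genes tested, although 2 had an unadjusted *P*-value under 0.05 and DESeq2 called 1, *Car14*. At P14, 0 of 5 were called with edgeR, beside 0.0318% of all genes, with 2 under 0.05 before adjustment. *Car2* was called at P14 by DESeq2 and also when same-numbered libraries were paired (log2 fold change -0.86). At P21, 1 of 5 was called (*Car2*), beside 4.67%, and at P35 there were 2 of 5 (*Car2* and *Car8*), beside 16%. WT and KO libraries did not overlap for 2, 1, 3 and 3 of the 5 genes at the successive ages, beside 8.62%, 4.84%, 24.7% and 39.6% of all genes. Because the 5 genes had been chosen on these contrasts, nothing is read from these counts.

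Between ages, 3 of 5 genes were called from P1 to P14 in WT (*Car3* lower, *Car8* and *Car14* higher), beside 55.1% of all genes. In KO there were also 3 (*Car2* lower, *Car8* and *Car14* higher), beside 52.6%. From P14 to P21, 2 were called in WT (*Car8*, *Car14*), beside 5.53%, and 1 in KO (*Car14*), beside 7.04%. From P21 to P35, 0 were called in either genotype, beside 2.45% in WT and 4.01% in KO. At that step 3 of the 5 in WT and 4 in KO had an unadjusted *P*-value under 0.05, and DESeq2 called *Car3* in WT and *Car2* in KO. The WT count from P14 to P21 became 4 without the WT P14 replicate 4 (*Car2*, *Car4*, *Car8* and *Car14*), and the KO count became 2 without the KO P14 replicate 4 (*Car4* and *Car14*). Since these age steps too were known when the 5 genes were chosen, nothing is read from the counts.

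The size of the KO effect was compared between neighbouring ages in 1 fit of all 32 libraries. None of the 5 genes was called for P21 against P14, beside 0.425% of all genes, or for P35 against P21, beside 0.463%. DESeq2 also called 0, and 0 of the 5 had an unadjusted *P*-value under 0.05 for either. Fits of only the libraries of the 2 ages called 0 as well, with *Car2* and *Car8* under 0.05 before adjustment for P21 against P14 and *Car8* for P35 against P21. These counts, too, are a description only. The largest differences in the fit of 32 libraries were -0.64 (SE 0.435) for *Car2* at P21 against P14 and -0.82 (SE 0.685) for *Car4* at P35 against P21.

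*Car4*, *Car8* and *Car14* were all lower at P1 than at P21 in both genotypes, while from P21 to P35 in WT the mean of *Car14* was lower (69.3 and 52.4 CPM) and those of *Car4* (9.83 and 12.3 CPM) and *Car8* (11.8 and 12.8 CPM) were not. Over the 32 libraries their log2 levels correlated with r = 0.88 for *Car8* and *Car14*, 0.81 for *Car4* and *Car14* and 0.75 for *Car4* and *Car8*. *Car2* and *Car3* had r = -0.37 with each other and between -0.20 and 0.13 with those 3. These values include the differences between ages and genotypes. After each group mean was removed, *Car8* and *Car14* had r = -0.20, and the highest value left was 0.65 for *Car4* and *Car14*. It dropped to 0.24 without both P14 replicate 4 libraries and was 0.36 when WT P35 replicate 3 was left out as well.

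The replicate 4 libraries at P14 were high together in genes other than these. Relative to the mean of replicates 1 to 3, *Car4* was 4.36 times as high in WT and 5.50 times in KO, and *Car14* was 2.09 and 1.58 times as high. *Car2* was at 1.22 and 1.40, *Car8* at 0.936 and 1.11, and *Car3* at 0.696 and 0.762. Among the genes most like *Car4*, the triglyceride lipase gene *Pnpla2* was at 406 CPM in WT, against 415 CPM in KO replicate 4, against at most 214 CPM in the other P14 libraries. The water channel gene *Aqp1* was at 547 and 586 CPM, against at most 307 CPM. *Pnpla2* and *Aqp1* were picked for likeness to *Car4* over these same libraries, so their high values here partly follow from that choice. Over all genes that passed the filter, the replicate 4 libraries of WT and KO at P14 deviated from their group means together (r = 0.59). What caused this was not tested.

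**Figure D3:**
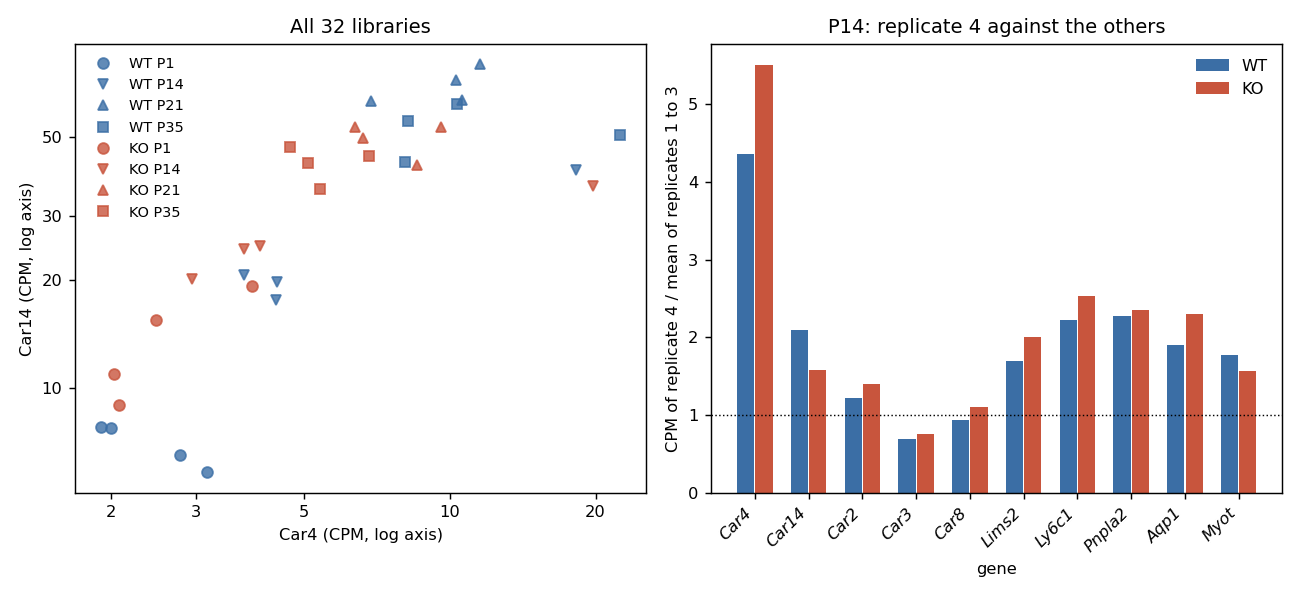
Left, *Car14* against *Car4* in CPM on log axes for all 32 libraries, blue for WT and red for KO, with a marker shape for each age. Right, the P14 replicate 4 library of each genotype divided by the mean of replicates 1 to 3, with a dotted line at 1. *Car4* stands at 4.36 (WT) and 5.50 (KO), and *Car3* and, in WT, *Car8* lie below 1.

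The genes whose levels were most like each member were ranked by Pearson's r of log2 CPM over 32 libraries, among 10172 genes. For *Car8* they were *Zfp770* (r = 0.97), *Gtpbp10* (0.97) and *Them4* (0.96), and for *Car14* the Z-disc gene *Myot* (0.96), *Cab39* (0.95) and *Galt* (0.95). For *Car4* they were *Agap2* (0.94), *Pnpla2* (0.93) and *Aqp1* (0.91). Likeness was weaker for *Car2*, with *Mtmr2* (0.78), *Sclt1* (0.77) and *Cmtm4* (0.77), and for *Car3*, with *H2-T22* (0.79), *Aebp1* (0.78) and *Rhobtb1* (0.78).

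With group means removed, the closest genes included *Lims2* (r = 0.90), *Ly6c1* (0.90) and *Pnpla2* (0.89) for *Car4*, and *Myot* (0.89) and *Abra* (0.86) for *Car14*. They were *Slc35a3* (0.82), *Cfap20* (0.80) and *Btg3* (0.77) for *Car8*, and *Nav3* (0.78), *Rftn2* (0.77) and *Klhl29* (0.77) for *Car3*. For *Car2*, *Tmem59* (0.65) and *Nudt22* (0.63) were among them. All these r are descriptions over libraries that share scaling and depth. Those for *Car4* and *Car14* include the P14 replicate 4 libraries and were not recomputed without them. In KO P1 replicate 4, *Car8* was at 4.08 CPM, against at most 2.45 CPM in the other KO P1 libraries. *Slc35a3*, *Cfap20* and *Btg3* were at 23.4, 24.7 and 21.4 CPM in it, against at most 15.7, 16.97 and 14.3 CPM. The r for *Car8* with these genes include that library and were not recomputed without it.

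The other 11 carbonic anhydrase genes were all low, at most 11.1 CPM for *Car13* in any library, and *Car5a* was at 0.0451 CPM or less. Of them 10 passed the filter at P1 and 7 at the later ages. None was called between genotypes at any age by edgeR, beside 0.0442%, 0.0318%, 4.67% and 16% of all genes at the 4 ages. Of the 11 genes, 1, 0, 1 and 1 were under an unadjusted *P*-value of 0.05. DESeq2 called 1, *Car13*, which encodes a cytosolic enzyme, at P35. There *Car13* was 0.842 ± 0.321 CPM in WT, against 2.14 ± 0.971 CPM in KO (SD, n=4), a log2 fold change of 1.37 (SE 0.364, edgeR adjusted *P*=0.0141).

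From P1 to P14 in WT, 8 of these genes out of 10 tested were called with edgeR, 7 lower and 1 higher, beside 55.1% of all genes called over that step. *Car13* went down by -3.84 (SE 0.305, adjusted *P*=2.41e-06), *Car12* by -2.70 (SE 0.312, adjusted *P*=2.87e-05), *Car5b*, a mitochondrial enzyme gene, by -1.94 (SE 0.383, adjusted *P*=0.00104) and *Car9* by -1.11 (SE 0.289, adjusted *P*=0.00552). *Car1*, *Car6* and *Car10*, at means of 0.483, 0.335 and 0.659 CPM at P1, were also lower. *Car7*, a cytosolic enzyme gene, rose by 1.79 (SE 0.183, adjusted *P*=1.26e-05). *Car11* (0.36, adjusted *P*=0.0842) and *Car15* (0.42, adjusted *P*=0.167) were not called. In KO, 8 of 10 were called as well, 7 lower and 1 higher, beside 52.6%. The keratinocyte markers fell over this step. In WT, osteoclast and cartilage markers summed to 561 to 1261 CPM at P1 and to at most 44.0 CPM at P14. Adipocyte markers in WT summed to 71.8 to 262 CPM at P1 and to at most 23.5 CPM at P14. The part of these cell types in the P1 levels was not tested.

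Carbonic anhydrases work beside bicarbonate and proton transporters, water channels that also pass gas, and enzymes that use bicarbonate. With the 11 other carbonic anhydrases and the IP3 receptors, which *Car8* regulates, these made a list of 40 genes. Of those that passed the filter, 0 of 36 were called at P1 and 0 of 31 at P14 with edgeR, with 4 and 2 under an unadjusted *P*-value of 0.05. DESeq2 called 1 at P1, *Slc4a8*, and 0 at P14. At P21, 4 of 31 were called (1 higher, 3 lower), and at P35, 8 of 30 (1 higher, 7 lower), beside the 4.67% and 16% of all genes. The median log2 fold change over the list was -0.27 at P21 and -0.37 at P35, against 0.01 and 0.04 over all genes tested. Scaling by library totals moved the median over all genes to 0.20 at P21 and 0.44 at P35. The medians of the list and of its groups were not recomputed with that scaling. The count at P21 was 2 without any 1 of 6 libraries (WT replicates 1, 2 and 4 and KO replicates 2, 3 and 4) and 7 with DESeq2. The list was chosen with earlier results of these data known. Its counts, medians and *P*-values, here and in the paragraphs on its groups, are therefore a description only.

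Among bicarbonate transporters, the anion exchanger gene *Slc4a3* was higher in KO and the sodium bicarbonate cotransporter gene *Slc4a4* lower. *Slc4a3* was 5.65 ± 0.458 CPM in WT, against 10.3 ± 0.990 CPM in KO at P21 (SD, n=4), a log2 fold change of 0.87 (SE 0.104, edgeR adjusted *P*=0.000932). At P35 it was 7.94 ± 1.16 and 18.03 ± 2.63 CPM, a fold change of 1.21 (SE 0.139, adjusted *P*=0.000257). *Slc4a4* differed by -0.64 at P21 (SE 0.0890, adjusted *P*=0.00171) and by -0.89 at P35 (SE 0.129, adjusted *P*=0.000738). WT and KO libraries did not overlap for either gene at either age. With edgeR the other transporters of this group were not called at either age, while DESeq2 called *Slc4a1* at P21 and *Slc4a8* at P35, and the fit with a replicate block also called *Slc4a8* at P35.

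*Slc16a3*, the gene of the lactate exporter MCT4, was 489 ± 66.6 CPM in WT, against 237 ± 40.9 CPM in KO at P35, a log2 fold change of -1.02 (SE 0.142, edgeR adjusted *P*=0.000607), after -0.69 at P21 (SE 0.123, adjusted *P*=0.00522). Neither *Bsg*, which encodes the chaperone of this transporter (-0.52, adjusted *P*=0.0102), nor *Slc16a1*, which encodes MCT1 (-0.64, adjusted *P*=0.0192), was called at P35 with edgeR, and DESeq2 called *Slc16a1*, with *Emb*, which encodes another chaperone of these transporters. Both water channel genes were lower in KO. *Aqp4* was 135 ± 25.0 CPM in WT, against 49.0 ± 9.60 CPM in KO at P35, at -1.43 (SE 0.170, adjusted *P*=0.000293), and it was already lower at P21 by -0.999 (SE 0.186, adjusted *P*=0.00613). *Aqp1*, which is also expressed by endothelium, was 838 ± 134 and 285 ± 35.1 CPM at P35, at -1.53 (SE 0.135, adjusted *P*=0.000102). At P21 it was -0.68 (SE 0.151, adjusted *P*=0.0130), not called with edgeR and called with DESeq2 and with a replicate block.

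With TMM scaling, the bicarbonate-using carboxylases lay below 0 in all 7 genes tested at P14, P21 and P35, with medians of -0.13, -0.34 and -0.55. At P14 none was called, with 1 under an unadjusted *P*-value of 0.05 and 0 called by DESeq2. At P21 none was called with edgeR, with 6 under an unadjusted *P*-value of 0.05, and DESeq2 and the fit with a replicate block called *Acacb*. At P35, 3 were called lower, beside 16% of all genes. *Acacb*, which encodes the mitochondrial acetyl-CoA carboxylase, was lower by -1.13 (SE 0.158, adjusted *P*=0.000607), *Pcca*, a subunit gene of propionyl-CoA carboxylase, by -0.88 (SE 0.0678, adjusted *P*=5.49e-05) and *Pcx*, the pyruvate carboxylase gene, by -0.71 (SE 0.144, adjusted *P*=0.00399). No IP3 receptor gene was called between genotypes at any age by edgeR or DESeq2, with 0, 0, 3 and 1 under an unadjusted *P*-value of 0.05 at the 4 ages and fold changes between -0.48 and 0.09. *Itpr1*, whose product is the known partner of the *Car8* protein, differed by -0.14 (SE 0.247, adjusted *P*=0.680) at P35.

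**Figure D4:**
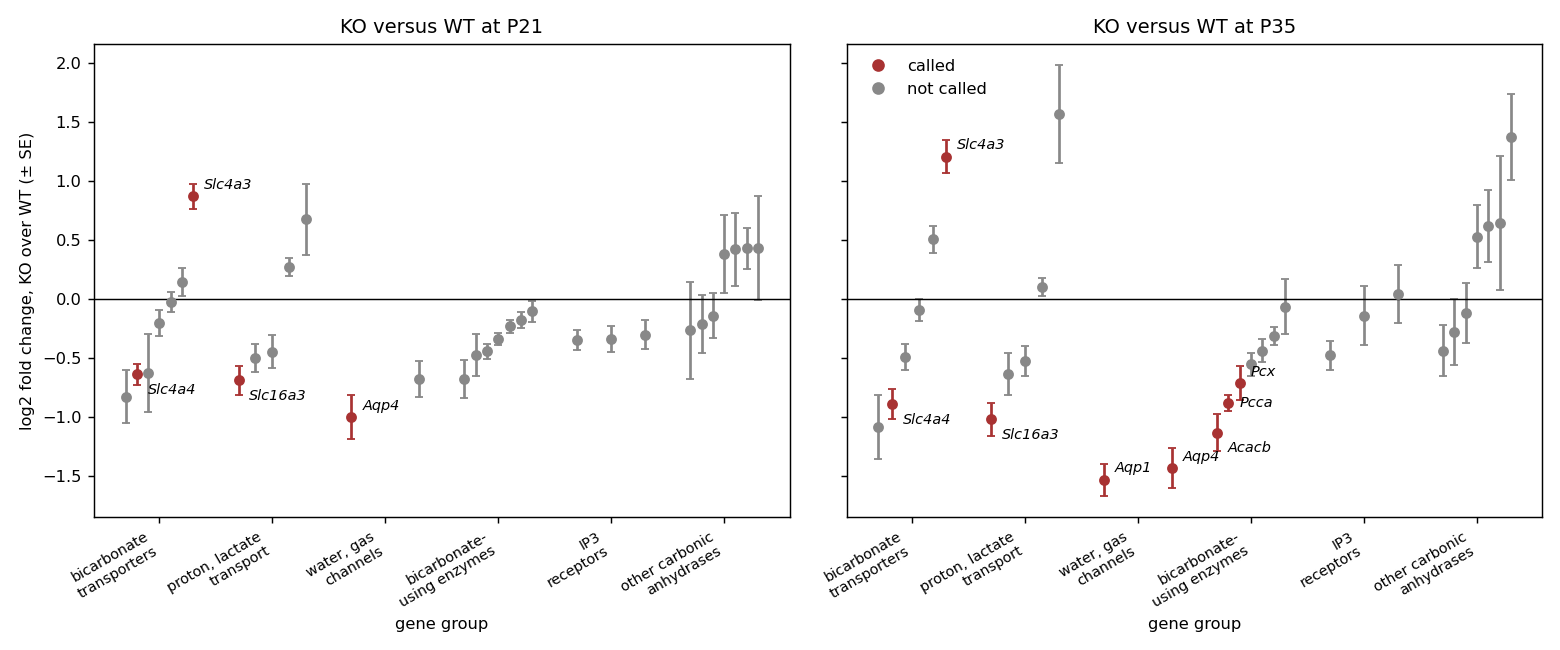
Log2 fold change of KO over WT at P21 and P35 for the listed genes that passed the filter, by group. Points are estimates from n=4 libraries per genotype, lines are ± 1 SE, and red points are called and named. *Slc4a3* is the called gene above 0, at 0.87 and 1.21, and *Aqp1* and *Aqp4* lie lowest at P35, at -1.53 and -1.43.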

How the data were processed

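Skeletal muscle RNA of 32 mice was measured. The authors aligned reads to GRCm38 (STAR 2.6.1 and RSEM 1.2.22 in the submitters' processing notes, HTSeq in the methods) and deposited expected counts per gene and library, unscaled and not pooled. Of the values 4.26% were not whole, and they were rounded. Annotation release and use of strand in counting are not given in the sources used here. Symbols (54723 of 54838 genes), coordinates, exon lengths and coding sequences came from GENCODE M21. Lengths are unions of exons. Groups and replicate numbers came from the labels, and 0 columns were unused.

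Genes were filtered with filterByExpr, scaled by TMM and tested two-sided with edgeR 4.0.16 in R 4.3.3 (glmQLFit, glmQLFTest), and *P*-values were adjusted by Benjamini-Hochberg across every gene tested. SEs are those of the unshrunk coefficient. Correlations were computed on log2 CPM (prior count of 2) in genes with a mean of at least 5 CPM. The 5 genes and all lists were chosen with earlier results of these data known. The text names those 5 genes, the other carbonic anhydrases that passed the filter, every listed gene called between genotypes and the 3 genes most like each of the 5 by each correlation, of which some are not reported here. Genes not called that are named beside them (*Bsg*, *Slc16a1*, *Itpr1*, *Slc4a1*, *Slc4a8*, *Emb*), *Car5a* and the overlapping genes were added after their values were seen. Alternatives were DESeq2 1.42.0, its size factors, library totals, no filter, 1 fit of all 32 libraries, interactions in the libraries of only 2 ages, blocking on replicate number, longest transcripts, a prior count of 0.5 and leaving out each library. The scripts were tested on simulated data. The lowest chi-square per degree of freedom between replicates was 10.5, so no library was a copy of another of its group. Libraries of different groups were not compared in this way. Replicate numbers come from the labels. At P14, WT and KO libraries of 1 number deviated from their group means together, with r = 0.19 to 0.59 in all 4 pairs. There, for the 5 genes, the fit with the replicate number as a block is given beside the fit without it, which stays the reported one. SDs measure the spread between these mice. SEs and *P*-values come from the fits, which take these mice as replicates and draw on many genes to estimate the spread. Python 3.11.15 and matplotlib 3.10.9 drew the figures.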

Additional observations from a re-analysis of the deposited data

Results flagged for a closer look

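In 4 of 40 sets of 4 libraries (5 genes in 8 groups), 1 library stood apart from the rest of its group by Dixon's test at the 95% level, which chance gives in about 1 in 20 sets. *Car4* was 18.2 CPM in WT P14 replicate 4 and 19.8 CPM in KO P14 replicate 4, with the other libraries of those groups at most at 4.41 and 4.07 CPM. *Car14* was 40.5 CPM in WT P14 replicate 4, against at most 20.6 CPM in the others. *Car4* was 22.5 CPM in WT P35 replicate 3, against at most 10.3 CPM. In that library *Lims2* (71.6 CPM) and *Ly6c1* (128 CPM) were also above the other WT libraries at P35, which reached 44.4 and 97.1 CPM, while *Car14*, at 50.4 CPM, was not. *Lims2* and *Ly6c1* were picked for likeness to *Car4* over these same libraries, so their high values partly follow from that choice. At P14 the same genes were raised in replicate 4 of both genotypes, with *Ly6c1* at 110 CPM (WT) and 112 CPM (KO) against at most 53.2 and 45.8 CPM. The cause was not tested.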

How the results depend on the processing

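Of the counts of calls for the 5 genes, and for the 40 listed genes between genotypes, these moved by over 1.5 times. With DESeq2, 1 of the 5 genes was called at P1, 1 at P14, 1 from P21 to P35 in WT and 1 in KO, and of the 40 listed genes 1 was called at P1 and 7 at P21. Scaled by library totals, 1 of the 5 was called at P35 (*Car2*), 1 from P14 to P21 in WT, and 2 of the 40 at P21. This scaling moved the median over all genes, on the log2 scale, to 0.20 at P21 and 0.44 at P35, and to -0.85 from P1 to P14 in WT. All 32 libraries in 1 fit gave 1 call (*Car3*) from P21 to P35 in WT. With the replicate number as a block, 1 of the 5 was called at P14, 1 from P21 to P35 in WT, and 0 from P14 to P21 in WT and in KO. The block moved no other of these counts by over 1.5 times. Outside P14 the numbers were not shown to pair libraries (mean r from -0.14 to 0.09), and for those comparisons the block is only a change of design. Without each library in turn, the 5 genes gave 0 to 4 calls from P14 to P21 in WT (0 without WT P14 replicate 3), 0 to 2 in KO, and 0 to 1 from P21 to P35 in KO (1 without KO P35 replicate 2). The 40 genes gave 2 to 5 calls at P21 and 7 to 12 at P35. Without both P14 replicate 4 libraries, an alternative chosen after seeing the data, 0 of the 5 were called at P14. Counts at P1, P14, P21 and P35 for the 5 genes stayed at 0, 0, 1 and 2 without any single library. Of the other values recomputed, 282 were labelled as the same and 11 as moved. Log2 fold changes and levels were judged against the spread between replicates, and the genes most like each member by how many were kept. The correlation of *Car4* and *Car14* with libraries left out was counted as moved without such a rule. Among 285 recomputed log2 fold changes between genotypes, 18 had the other sign, in values that had been at most 0.29 in size and not called.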

Other observations

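Some partner genes of the carbonic anhydrases changed with age in WT muscle. They belong to the list chosen with earlier results of these data known, so the counts and *P*-values are a description only. From P14 to P21, 7 of the 31 listed genes that passed the filter were called with edgeR, all 7 higher, beside 5.53% of all genes called. DESeq2 called 9, and the fit with a replicate block, at a step where the numbers were not shown to pair libraries, called 3 (*Slc16a1*, *Pcx* and *Acaca*). *Slc16a1* (MCT1) rose by 0.97 (SE 0.123, adjusted *P*=0.00123) and *Slc16a3* (MCT4) by 0.91 (SE 0.171, adjusted *P*=0.00574). The carboxylase genes *Pcx*, *Acaca* and *Acacb* rose by 1.41, 1.30 and 0.74 (adjusted *P*=0.000768, 0.000924 and 0.00279). *Slc26a6*, an anion exchanger gene, rose by 0.66 (adjusted *P*=0.00480), and *Slc4a1*, the anion exchanger of red blood cells and 1 of the 7 erythroid markers, rose by 2.21 (adjusted *P*=0.00221). In KO over the same ages, 5 of 31 were called, 4 higher and 1 lower, beside 7.04% of all genes (8 with DESeq2, 4 with the block), and *Slc16a1* differed by 0.23 (SE 0.0920, adjusted *P*=0.0847). The difference in the *Slc16a1* step between genotypes was -0.74 (SE 0.197, edgeR interaction, adjusted *P*=0.0547), which was not called.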
